A study of Homo sapiens with 9 samples.

Results

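The comparison concerns siTDRD9-2, the weaker of 2 siRNAs against *TDRD9*, against siControl in NCI-H1993 cells, a human lung adenocarcinoma line. It takes 6 of the 9 arrays of the study, namely the 3 labelled siTDRD9-2 and the 3 labelled siControl. The other 3 arrays, labelled siTDRD9-1, carry another siRNA against the same transcript. They entered the same fit, where they help to set the spread behind each test, counted in the choice of each gene's brightest probe set, and served to test whether a change differed between the siRNAs. Each array measured total RNA of 1 of 9 cultures of the same line, collected 72 h after transfection. The paper describes 3 independent transfection experiments, and the sample titles do not say whether equal replicate numbers share an experiment. All groups share the transfection itself and by design differ by the siRNA. The field on RNA isolation names another line, HCT-shSLBP, and the sample labels were followed. The values are log2 signals of Affymetrix PrimeView arrays, whose probe sets lie towards the 3′ ends of transcripts and often number several per gene.

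*TDRD9* encodes a Tudor-domain RNA helicase of the piRNA pathway. In male germ cells, PIWI proteins loaded with small RNAs find transposon transcripts, and Tudor-domain proteins bind the methylated arginines of PIWI proteins. The gene is normally silent in most somatic tissue, and the study silenced it in a tumour line that expresses it. An siRNA lowers a transcript through Argonaute, and a second siRNA of another sequence is the usual control for changes that belong to 1 sequence alone.

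*TDRD9* was the first gene examined, since it checks the labels. Its only probe set stood at 6.65, 6.80 and 6.93 in the siControl arrays and at 6.12, 6.12 and 6.05 in the siTDRD9-2 arrays. The groups did not overlap, and the log2 change was -0.70 (standard error 0.144, adjusted p = 0.00931 in limma). The signal left was 61.7% of siControl, against 22.1% with siTDRD9-1, and the difference between the siRNAs was 1.48 on the log2 scale (adjusted p = 0.000426). The fall was close to the threshold of an adjusted p of 0.01. It missed the threshold in the fits without 1 of the siControl or siTDRD9-2 arrays or without siTDRD9-1 replicate 2. In those the change was -0.77 to -0.63 and the adjusted p was 0.0139 to 0.0469. It also missed it with cyclic loess normalization (adjusted p = 0.0118) and with the replicate number as a block in the limma fit (adjusted p = 0.0153). Of the other 22 measured members of the list of Tudor and PIWI genes none passed the test, and none of the 23 but *TDRD9* had an unadjusted p under 0.05.

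*ALPP*, which encodes the placental alkaline phosphatase, an ectoenzyme of the cell surface, rose with siTDRD9-2 and differed from siTDRD9-1. At its brightest probe set the siControl arrays gave 6.97, 7.15 and 7.17 and the siTDRD9-2 arrays 8.41, 8.32 and 8.92, a log2 change of 1.45 (standard error 0.143, adjusted p = 0.000132). At the other it stood at 6.85, 6.78 and 6.71 against 8.28, 7.99 and 8.57, a change of 1.499 (adjusted p = 0.000107). Both probe sets separated the groups fully, and with siTDRD9-1 their changes were -0.07 and 0.08. The nearest relatives of the gene have probe sets of their own. The second *ALPP* probe set carries a suffix for probes shared by transcripts of several genes, so it may take up their signal. *ALPG*, the germ cell alkaline phosphatase gene beside it, had a value of -0.05 (adjusted p = 0.836), and the brightest probe set of *ALPI*, the intestinal enzyme's gene, had a value of -0.01 (adjusted p = 0.968). In the list of alkaline phosphatases and ectonucleotidases *ALPP* was the only one of 18 measured genes past an adjusted p of 0.01.

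The stretch before the start site of *ALPP* is shown beside that of *ALPG*, because the neighbours are close copies of which 1 rose. Each run holds the 250 bases before the start of transcription on the plus strand, from RefSeq on GRCh38.p14, at chr2:232378501-232378750 for *ALPP* and chr2:232406594-232406843 for *ALPG*. Capitals mark the 34 bases of each that differ from, or have no partner in, a global alignment of the pair.
ALPP: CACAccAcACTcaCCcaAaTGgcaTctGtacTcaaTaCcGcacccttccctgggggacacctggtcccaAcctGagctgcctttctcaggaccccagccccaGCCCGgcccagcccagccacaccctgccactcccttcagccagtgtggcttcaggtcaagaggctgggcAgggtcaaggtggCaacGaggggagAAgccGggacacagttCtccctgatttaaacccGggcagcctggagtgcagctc
ALPG: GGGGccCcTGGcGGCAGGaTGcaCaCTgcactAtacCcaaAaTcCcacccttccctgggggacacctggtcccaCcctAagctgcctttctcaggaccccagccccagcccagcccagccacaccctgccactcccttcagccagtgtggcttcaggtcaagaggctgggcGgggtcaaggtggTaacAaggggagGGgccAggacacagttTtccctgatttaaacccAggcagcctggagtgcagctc
The runs were identical at 216 aligned bases, 86.4% of their length, and most of the capitals lie at the end farther from the start.

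The whole table holds 49293 probe sets that are not controls of the array. A call took an adjusted p under 0.01 together with a 2-fold change or more. With siTDRD9-2, 298 were called higher (0.605% of those tested) and 101 lower (0.205%). An unadjusted p under 0.05 was reached by 12515, and the median change of all probe sets was -0.02. The 298 rises cover 205 genes and the 101 falls 82 genes, which are 1.13% and 0.452% of 18132 genes with a probe set of their own. Only *SCLT1*, a gene of the centriole's distal appendages, was called both ways. In each called probe set the 3 siTDRD9-2 arrays lay wholly above or wholly below the 3 siControl arrays, as they did in 13.9% (above) and 15.7% (below) of all probe sets.

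The rises and the falls stood differently beside the other siRNA. Both siRNAs were compared with the same 3 siControl arrays. Of the 298 rises, 160 (53.7%) were also called with siTDRD9-1. The remaining 138 had a median change of 1.15 with siTDRD9-2 and 0.76 with siTDRD9-1. Of the 101 falls, 18 (17.8%) were also called with siTDRD9-1, and the remaining 83 had medians of -1.17 and -0.50. A direct test of siTDRD9-2 against siTDRD9-1 found 454 probe sets higher (0.921%) and 509 lower (1.03%) at an adjusted p under 0.01. It was passed by 36 of the 298 rises (12.1%) and by 50 of the 101 falls (49.5%). The 36 rises that differed had a median of 1.20 with siTDRD9-2 and 0.24 with siTDRD9-1, and the 50 falls had -1.19 and -0.23. These probe sets were chosen by that test, so a gap between the medians follows from the choice. Each of the counts of 36 and 50 moved by over 1.5 times in some fits without 1 array. The 36 became 23 without siTDRD9-2 replicate 2, and 21, 22 and 23 without siTDRD9-1 replicate 1, 2 and 3, and the 50 became 29 without siTDRD9-1 replicate 1.

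**Figure D1:**
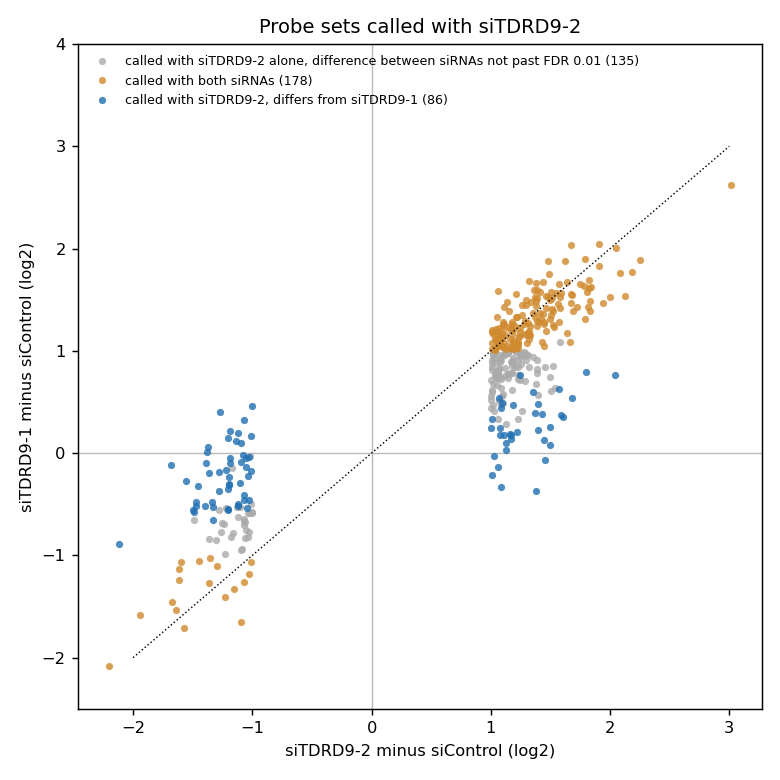
Log2 change of the 399 probe sets called with siTDRD9-2 (x axis, siTDRD9-2 minus siControl) against their change with siTDRD9-1 (y axis), with the dotted line marking equal changes. The 160 rises and 18 falls called with both siRNAs lie near the line, and the 36 rises and 50 falls that differ between the siRNAs lie closer to 0 on the y axis. The latter were chosen by that difference. Both axes share the siControl arrays.

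The siControl arrays stood apart from both siRNAs in the array's own controls. Spiked bacterial RNAs with a poly-A tail averaged 8.35 ± 0.128 on the log2 scale in siControl and 7.66 ± 0.101 in siTDRD9-2 (SD, n = 3 each). By a two-sided exact permutation test p was 0.1, and no smaller p is possible with 3 against 3. Their 3′ probe sets exceeded the 5′ ones by 1.44 and 1.05 (exact p = 0.1), and 18S rRNA at its 3′ end averaged 11.9 and 13.4 (exact p = 0.1). Between siTDRD9-2 and siTDRD9-1 the same measures gave exact p of 0.8, 0.6 and 1. The part of these shifts in the changes against siControl was not tested. Among the marker lists, genes of lung adenocarcinoma and epithelium averaged 10.6 in every array of siControl and siTDRD9-2. Fibroblast, immune and endothelial markers averaged 3.58 to 4.69 over the same arrays, and colorectal ones 4.64 to 4.80.

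The 15 largest rises included genes of linker histones, an RNA helicase and the centrosome, and 14 of the 15 were also called with siTDRD9-1. *H1-4*, a linker histone gene, led with 4.48, 4.69 and 5.21 in siControl and 7.60, 7.87 and 7.96 in siTDRD9-2, a log2 change of 3.02 (standard error 0.163, adjusted p = 9.76e-06) beside 2.62 with siTDRD9-1. *H1-3*, its paralog, had 5.67, 6.16 and 5.77 against 7.88, 8.18 and 7.25, a change of 1.91 (adjusted p = 0.000272). Each of these genes has 1 probe set, and siTDRD9-2 replicate 3 was the highest for the first and the lowest for the second. *DHX9*, an RNA and DNA helicase, had 6.18, 5.69 and 5.60 against 7.96, 8.17 and 8.11, a change of 2.25 (adjusted p = 2.41e-05). A second of its probe sets changed by 2.00, while the brightest of the 3 had a value of -0.05 (adjusted p = 0.825).

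That split between probe sets of 1 gene recurred in the list of large rises. *PRKDC*, the catalytic subunit of DNA-PK, had 8.62, 8.94 and 8.89 against 10.76, 10.89 and 10.93 at the called probe set, a change of 2.05 (adjusted p = 1.25e-05), and 10.76, 10.76 and 11.27 against 10.87, 10.69 and 11.07 at the brightest, a value of -0.06 (adjusted p = 0.865). *BDP1*, part of TFIIIB, which recruits RNA polymerase III, changed by 2.18 and 1.69 at its called probe sets and had a value of -0.37 at the brightest (adjusted p = 0.119). *PPARGC1A*, the coactivator of mitochondrial biogenesis, was called at 3 of 4 probe sets with changes of 2.12, 1.79 and 1.39, and its brightest had a value of 0.49 (adjusted p = 0.0335). The pattern in these genes was of 1 or more dimmer probe sets that rose and a brightest one that did not pass the test.

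The others of the 15 were *RASSF8*, a Ras-association domain gene (2.09), *NSD1*, a histone H3 methyltransferase (1.94), *CEP250*, a linker of centrosomes (1.91), *PHLDB2*, which anchors microtubules at the cell cortex (1.84), *BOD1L1*, which protects replication forks (1.83), *ATF7IP*, a partner of the histone methyltransferase SETDB1 (1.83), *TPR* of the nuclear pore basket (1.82), *ESCO1*, a cohesin acetyltransferase (1.82), and *ZFR*, described below. The brightest probe set of each of these passed no test, with values from -0.23 for *PHLDB2* to 0.42 for *RASSF8*. The call of *RASSF8* rested on the siTDRD9-2 arrays, which gave 7.80, 8.14 and 6.94 against 5.92, 6.03 and 4.66: its adjusted p was 0.0133 without siTDRD9-2 replicate 1 (change 2.00) and 0.0157 without replicate 2 (change 1.83). In all, 55 of the 298 probe sets called higher reached 1.5 on the log2 scale, those of these 15 genes included.

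**Figure D2:**
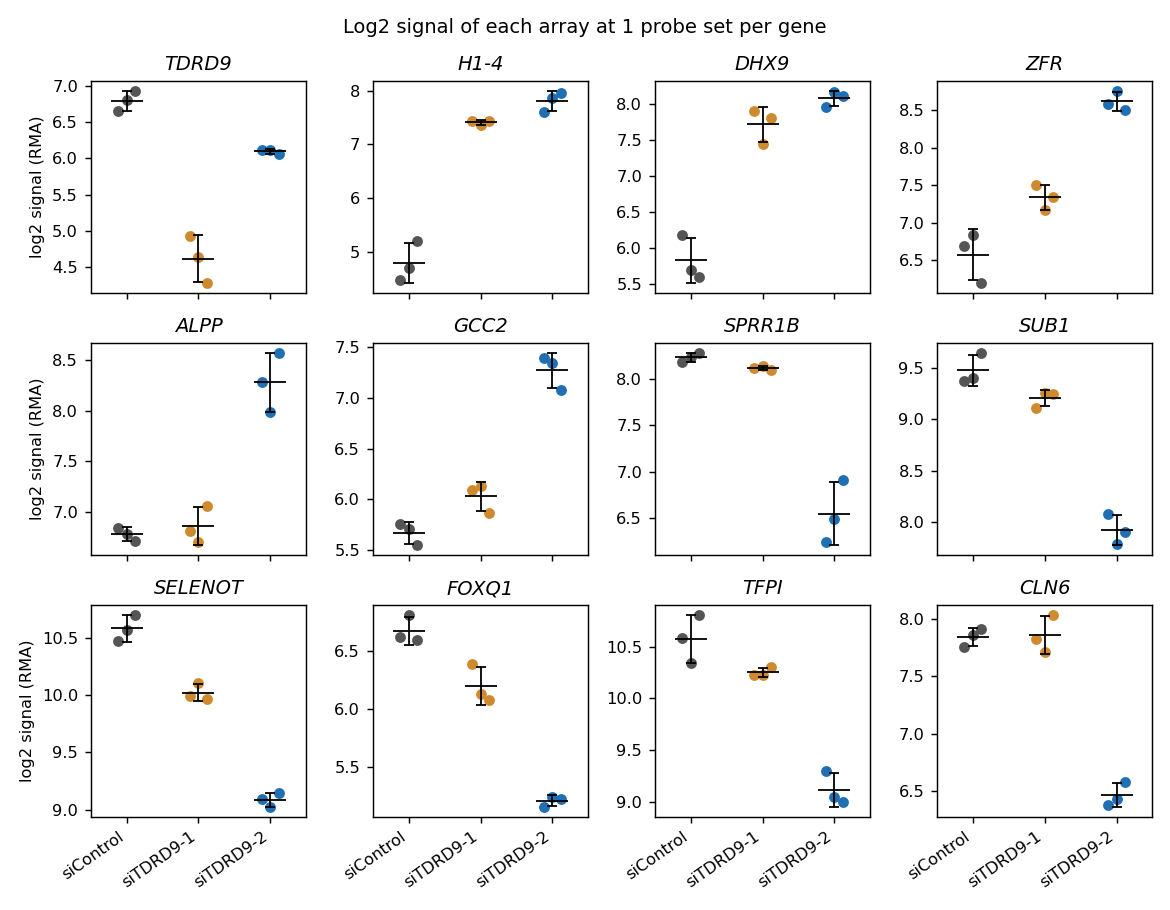
Log2 signal of each array (y axis, RMA, a separate scale in each panel) at 1 probe set of 12 genes, for siControl, siTDRD9-1 and siTDRD9-2. Points are cultures and the bars give mean ± SD (n = 3). *H1-4* and *DHX9* lie high with both siRNAs, *ALPP*, *GCC2* and *ZFR* lie highest with siTDRD9-2, and *SPRR1B*, *SUB1*, *SELENOT*, *FOXQ1*, *TFPI* and *CLN6* lie lowest with it.

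Among the rises that differed from siTDRD9-1, which cover 18 genes and 7 probe sets of several genes or none, *ZFR* was the largest. *ZFR* encodes a zinc finger protein that binds double-stranded RNA. The called probe set with the largest change had 6.69, 6.84 and 6.20 in siControl and 8.59, 8.76 and 8.51 in siTDRD9-2, a change of 2.04 (standard error 0.155, adjusted p = 3.55e-05), against 0.76 with siTDRD9-1. Of its 6 probe sets 4 were called, at 1.44 to 2.04, each with a difference from siTDRD9-1 of 0.999 to 1.32. At the brightest, siControl gave 10.88, 11.07 and 11.12 and siTDRD9-2 11.15, 10.99 and 10.88, which overlap, while siTDRD9-1 gave 9.72, 9.94 and 9.89. The siRNAs thus differed by about the same amount at each of these probe sets, on a different level against siControl.

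*GCC2*, a golgin of the trans-Golgi network, rose at 3 of 4 probe sets, its brightest among them. That one had 7.51, 7.60 and 7.40 in siControl, 9.20, 9.11 and 8.91 in siTDRD9-2 and 8.16, 8.16 and 8.06 in siTDRD9-1, a change of 1.57 (adjusted p = 1.66e-05) and a difference between the siRNAs of 0.94. *GJA5*, which encodes the gap junction protein connexin 40, had 5.71, 5.63 and 5.97 against 7.14, 6.84 and 6.72 at its brightest probe set and 4.57, 4.22 and 4.50 against 5.83, 5.79 and 5.95 at the other, changes of 1.13 and 1.43. *AKAP12*, a scaffold of protein kinase A, had 7.42, 7.28 and 7.89 against 8.77, 8.39 and 8.61 at the brightest and rose by 1.06 and 1.01. *ALPP*, *AKAP12* and *GJA5* were the only genes with at least 2 probe sets of which all were called higher, and with siTDRD9-1 their probe sets had values of -0.21 to 0.39.

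*OPN3*, an opsin gene expressed outside the eye, has 1 probe set and rose from 9.14, 9.50 and 9.15 to 10.71, 10.72 and 10.55 (change 1.40, adjusted p = 6.81e-05). *STAU2*, which carries mRNA in neurons and binds double-stranded RNA, was called at 2 of 5 probe sets with changes of 1.39 and 1.03, and rose by 0.795 at the brightest (adjusted p = 0.000312). *PPFIBP2*, a liprin, was called at 2 of 4 with 1.68 and 1.37 and rose by 0.65 at the brightest (adjusted p = 0.00377). For *STAU2* and *PPFIBP2* the called and the brightest probe sets moved the same way, and their other probe sets had negative values that did not pass the test.

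*CCDC80*, which encodes a secreted protein of the extracellular matrix, had the largest difference between the siRNAs among the named rises. It stood at 3.20, 3.27 and 3.20 in siControl, 4.31, 4.84 and 4.65 in siTDRD9-2 and 2.91, 2.82 and 2.83 in siTDRD9-1, a change of 1.38 and a difference of 1.75, both at dim signals, with a value of 0.46 at the brightest of its 6 probe sets (adjusted p = 0.085). *PGM2L1*, a glucose bisphosphate synthase, rose by 1.06 at its brightest probe set and by 1.22 at another. *PCDH7*, a protocadherin, went both ways. A probe set rose by 1.24, and the brightest had 9.23, 9.25 and 9.68 against 8.52, 8.29 and 8.66, a change of -0.90 (adjusted p = 0.00389), so its direction depends on the probe set. The other genes of the 18, chosen for mention after their values were seen, were *RRAD*, *CCN5*, *NCOA7*, *PLEKHA1*, *GABARAPL1*, *AMMECR1L* and *GAPVD1*. *CCN5*, a matricellular gene, had 6.38, 6.39 and 6.49 against 7.57, 7.50 and 7.44 at its only probe set, with 6.16, 6.13 and 5.96 in siTDRD9-1. *RRAD*, a small GTPase, rose by 1.13 at its only one, and *NCOA7*, a nuclear receptor coactivator, by 0.88 at the brightest of 5.

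The 10 largest falls included a receptor, a growth factor and a matrix gene, and 7 of them were also called with siTDRD9-1. *AXL*, a receptor tyrosine kinase, had 4.98, 4.66 and 5.77 in siControl and 2.66, 2.92 and 3.23 in siTDRD9-2, a change of -2.20 (standard error 0.248, adjusted p = 0.00029) beside -2.08 with siTDRD9-1. Its other probe set lay at 4.44, 4.19 and 4.42 against 4.21, 4.23 and 4.40, which overlap. *CCN2*, the connective tissue growth factor gene, had 4.05, 4.53 and 4.76 against 2.66, 2.70 and 3.13, a change of -1.62 (adjusted p = 0.000208). This was not its brightest probe set, which did not pass the test. The called probe sets of *AXL* and *CCN2* lay below the median siControl signal of all probe sets, 5.76, in nearly every array. *MATN3*, a matrilin, was called at both of its probe sets, with 6.80, 6.63 and 6.70 against 5.45, 5.36 and 5.26 at the brightest (change -1.36) and -1.94 at the other.

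*QKI*, an RNA-binding regulator of splicing, fell from 8.75, 8.91 and 9.13 to 7.32, 7.24 and 7.36 at 1 of 6 probe sets (change -1.62, adjusted p = 1.65e-05), with -0.26 at the brightest (adjusted p = 0.0916). *ASPH*, the aspartate beta-hydroxylase gene, was called at 1 of 9 with -1.68, while its brightest had -0.31 (adjusted p = 0.0365) and another rose by 0.64 (adjusted p = 0.00368). *SCLT1* was called at 1 of 6 with -1.60 and, in the other direction, at 1 with 1.17. *PPP3R1*, the regulatory subunit of calcineurin, had 9.38, 9.78 and 8.08 in siControl and 7.48, 7.30 and 7.74 in siTDRD9-2, a change of -1.57 (adjusted p = 0.00899). Its siControl replicate 3 lay below the other siControl arrays and near siTDRD9-2, and its adjusted p was 0.0133 to 0.0386 in the fits without any 1 of the other 8 arrays, with a change of -1.47 at the highest of these, without siTDRD9-2 replicate 2. A second of its 4 probe sets was also called, with 8.68, 8.65 and 7.72 against 7.01, 7.03 and 7.11, a change of -1.29 (adjusted p = 0.00244). The other large falls, *ZNF680*, *SPRR1B* and *SUB1*, differed from siTDRD9-1.

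The falls that differed from siTDRD9-1 cover 39 genes and 4 probe sets of several genes or none. *SPRR1B* encodes a small proline-rich protein that is cross-linked into the cornified envelope of squamous epithelium. It has 1 probe set, with 8.18, 8.24 and 8.28 in siControl, 6.24, 6.49 and 6.91 in siTDRD9-2 and 8.11, 8.14 and 8.10 in siTDRD9-1, a change of -1.68 (standard error 0.140, adjusted p = 5.01e-05) and a difference of -1.57. *SPRR1A*, its paralog on the same chromosome, was chosen for mention after its values were seen. It had 6.11, 6.11 and 6.27 against 4.71, 5.14 and 5.08, a change of -1.19 (adjusted p = 0.000392), at 1 probe set and a value of -0.36 (adjusted p = 0.0534) at the brighter one. Their stretches before the start site are shown because each of the pair had a probe set called lower. AP-1, the dimer of Fos and Jun proteins, is a known activator of these genes in keratinocytes, and capitals mark its core TGANTCA, which reads the same on both strands. The runs hold the 250 bases before the start on the plus strand, from RefSeq on GRCh38.p14, at chr1:152983831-152984080 for *SPRR1A* and chr1:153030953-153031202 for *SPRR1B*.
SPRR1A: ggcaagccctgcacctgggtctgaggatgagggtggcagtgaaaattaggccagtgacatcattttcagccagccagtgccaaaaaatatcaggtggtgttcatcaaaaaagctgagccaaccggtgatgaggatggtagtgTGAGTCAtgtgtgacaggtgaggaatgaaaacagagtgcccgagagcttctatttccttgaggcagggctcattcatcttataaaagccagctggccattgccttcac
SPRR1B: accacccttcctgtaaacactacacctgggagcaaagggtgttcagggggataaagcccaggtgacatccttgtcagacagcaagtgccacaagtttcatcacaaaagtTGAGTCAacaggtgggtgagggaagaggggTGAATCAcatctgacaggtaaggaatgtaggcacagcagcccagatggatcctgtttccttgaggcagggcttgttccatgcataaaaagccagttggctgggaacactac
The core occurred once before *SPRR1A* and at 2 places before *SPRR1B*. At least 1 was found in 6.6% of 27305 promoters over the same 250 bases, and 2 or more in 0.385%. A match is a string of letters and not a measured site.

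*SELENOT*, a selenoprotein of the endoplasmic reticulum, was called lower at all 4 of its probe sets. The brightest had 10.47, 10.57 and 10.71 in siControl, 9.09, 9.02 and 9.15 in siTDRD9-2 and 9.99, 10.11 and 9.97 in siTDRD9-1, a change of -1.497 (standard error 0.0921, adjusted p = 1.58e-05), and the others changed by -1.19, -1.18 and -1.37. *FOXQ1*, a forkhead transcription factor, fell at both of its probe sets, from 8.02, 8.14 and 8.10 to 6.83, 6.98 and 6.60 at the brightest (change -1.28) and by -1.47 at the other. Besides *MATN3*, these were the only genes with at least 2 probe sets of which all were called lower.

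*SUB1*, a transcriptional coactivator that binds single-stranded DNA, was called at 3 of 5 probe sets and not at the brightest. It had 9.38, 9.40 and 9.65 against 8.07, 7.79 and 7.90 at the largest fall (change -1.56, adjusted p = 2.41e-05, with -0.27 in siTDRD9-1), and 12.34, 12.31 and 12.16 against 12.25, 12.25 and 12.29 at the brightest (value -0.01, adjusted p = 0.977). *ZNF680*, a zinc finger gene, had 6.44, 6.58 and 6.91 against 4.67, 4.66 and 4.25 at 1 probe set, a change of -2.11, and -0.19 at the other (adjusted p = 0.386). *SPATS2L* likewise changed by -1.49 at 1 of 3 probe sets and had -0.21 at the brightest (adjusted p = 0.159). In these 3 genes the fall was seen at some probe sets alone.

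*TFPI*, the inhibitor of the tissue factor pathway of coagulation, fell at its brightest probe set from 10.58, 10.34 and 10.81 to 9.30, 9.04 and 9.001 (change -1.46, adjusted p = 6.05e-05), with 10.23, 10.22 and 10.30 in siTDRD9-1. *DDAH1*, which degrades asymmetric dimethylarginine, fell from 9.49, 9.62 and 9.68 to 8.26, 8.25 and 8.12 (change -1.39), and siTDRD9-1 gave 9.54, 9.60 and 9.37. *CLN6*, a gene of the endoplasmic reticulum mutated in a neuronal ceroid lipofuscinosis, fell from 7.76, 7.86 and 7.92 to 6.38, 6.43 and 6.58 (change -1.38), with 7.82, 7.71 and 8.04 in siTDRD9-1. For *DDAH1* and *CLN6* the siTDRD9-1 and siControl arrays overlapped. *MFSD8*, a lysosomal membrane protein gene of the same group of diseases, fell from 7.10, 7.44 and 7.29 to 6.02, 6.01 and 5.61 (change -1.40), with 6.80, 6.95 and 6.52 in siTDRD9-1.

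Other falls of the 39 were chosen for mention after their values were seen. *KLF2*, a Kruppel-like transcription factor, fell from 8.15, 8.27 and 8.70 to 7.06, 6.84 and 7.40 (change -1.27) and stood at 8.65, 8.77 and 8.89 in siTDRD9-1, a difference of -1.67. *KLF6* fell by 1.20 on the log2 scale at the brightest of 5 probe sets. *CEACAM5*, a cell adhesion antigen of epithelial tumours, fell from 9.23, 9.19 and 9.34 to 8.28, 8.15 and 8.45 at the brightest (change -0.96) and by 1.12 at the called one, with 9.30, 9.44 and 9.44 in siTDRD9-1. Of these 3, *KLF2* and *CEACAM5* had a positive value with siTDRD9-1. *LSM1*, of the ring that marks mRNA for decapping, fell by 1.19 at its only probe set. *EIF2A*, an initiation factor that acts apart from the main initiation complex, had changes of -1.20 and -0.95 at its 2 probe sets. *OSTM1*, a partner of a lysosomal chloride transporter, and *GALC*, the lysosomal galactosylceramidase, changed by -1.37 (with -0.33 at the brightest, adjusted p = 0.0491) and -1.05, and *HSP90AA1*, a cytosolic chaperone, by -1.07 and -0.54 at its 2.

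**Figure D3:**
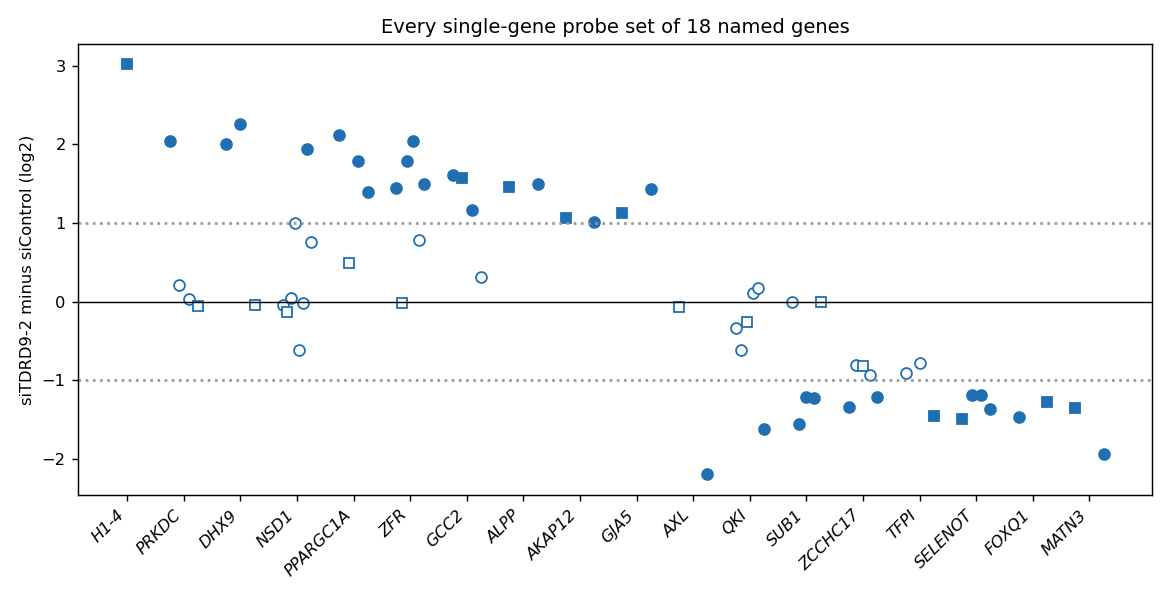
Log2 change with siTDRD9-2 (y axis) at every single-gene probe set of 18 named genes. Filled marks are called, squares are the brightest probe set of a gene, and dotted lines mark a 2-fold change. For *PRKDC*, *DHX9*, *NSD1* and *ZFR* the square lies near 0 and the called marks above it, while the squares of *ALPP*, *GJA5*, *SELENOT*, *FOXQ1*, *TFPI* and *MATN3* are themselves called.

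What the called probe sets share beyond their change was described without a test. At an adjusted p under 0.01 and no fold minimum, 1456 of all 49293 probe sets were higher and 1100 lower. The 205 genes with a rise have 641 further probe sets, with a median change of 0.10, of which 97 were higher and 6 lower at an adjusted p under 0.01, and 31 of the 205 genes were called at the brightest. The 82 genes with a fall have 191, with a median of -0.36, of which 2 were higher and 47 lower, and 43 of the 82 were called at the brightest. The rises that differed from siTDRD9-1 stood nearer to the falls in this respect, with a median of 0.45 over 39 further probe sets and 7 of 18 genes called at the brightest, against 0.04 over 348 and 16 of 111 for the rises called with both siRNAs. The falls that differed had -0.47 over 80 further probe sets and 20 of 39 genes called at the brightest.

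By the array's naming, a suffix _a_at marks probes shared by transcripts of 1 gene, and _s_at probes shared by transcripts of several. The suffix _a_at was carried by 67.4% of the rises and 22.8% of the falls, against 46.7% of all tested, and _s_at by 10.4% and 31.7%, against 13.1%. The median siControl signal was 6.21 for the rises, 7.78 for the falls and 5.76 for all, and 8.30 for the falls that differed from siTDRD9-1. Of 18132 genes taken at the brightest probe set, 239 were higher (1.32%) and 549 lower (3.03%) at an adjusted p under 0.01, with a median of -0.06. Falls thus outnumbered rises at the brightest probe sets, at an adjusted p under 0.01 with no fold minimum. Rises outnumbered falls among the calls over all probe sets, which also took a 2-fold change. With that fold minimum, 31 genes were called higher and 43 lower at the brightest.

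The gene lists were read at the brightest probe set against these shares of 1.32% and 3.03%. Over the same 18132 genes 63.1% had a negative value, and at an unadjusted p under 0.05 the shares were 7.5% higher and 16% lower. Output and feedback genes of the MAPK pathway, which extracellular growth factors switch on through ERK, had 7 lower and none higher of 29, and 24 of 29 negative, at a median of -0.20. At an unadjusted p under 0.05 none was higher and 14 were lower. *EREG*, a ligand of the EGF receptor, had 10.71, 10.84 and 10.90 against 10.14, 9.94 and 9.85 (change -0.84, adjusted p = 0.000638). *SPRED2*, an inhibitor of Ras signalling, had 9.93, 10.16 and 10.10 against 9.39, 9.23 and 9.42 (change -0.72, adjusted p = 0.000881). *SPRED1*, its paralog, and *FOSL1*, a Fos family member of AP-1, changed by -0.77 and -0.59, and each lost the call in 4 fits without 1 array, at an adjusted p of up to 0.0227 and 0.0193, both without siControl replicate 2, where they changed by -0.71 and -0.53. Over the alternatives the list had 2 to 10 genes lower and none higher, with 2 lower without siControl replicate 2 or 3 or siTDRD9-2 replicate 2, and 3 without siTDRD9-2 replicate 1 or 3.

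Targets of YAP, the coactivator of the Hippo pathway, had 1 higher and 4 lower of 25. The 4 became 2 without siControl replicate 1 or 2 or siTDRD9-2 replicate 2. A probe set was called lower for *CCN2*, *ANKRD1*, *AXL* and *DDAH1*, against 0.452% of all genes. For *CCN2* and *AXL* it was not the brightest, which did not pass the test. *ANKRD1*, a cardiac ankyrin repeat gene, had 5.02, 5.45 and 4.64 against 4.29, 3.87 and 3.69 (change -1.09). Its adjusted p was 0.0167 to 0.0219 in the fits without siControl replicate 1 or 2 or siTDRD9-2 replicate 2 or 3. Of these 4, *DDAH1* alone passed the test between the siRNAs. Extracellular matrix and integrin genes had none higher and 5 lower of 36, at a median of -0.15, and 2 lower without siControl replicate 2 or 3 or siTDRD9-2 replicate 2. *COL4A5*, a basement membrane collagen chain, fell from 9.55, 9.67 and 9.86 to 8.69, 8.39 and 8.43 (change -1.20) and differed from siTDRD9-1 by -0.90. *ITGB8* and *ITGA3*, integrin subunits, changed by -1.06 and -0.59, and each passed 0.01 by a margin that the absence of any 1 of 4 arrays removed, with an adjusted p of up to 0.0228 (change -0.94, without siControl replicate 3) and 0.0182 (change -0.56, without siControl replicate 2).

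**Figure D4:**
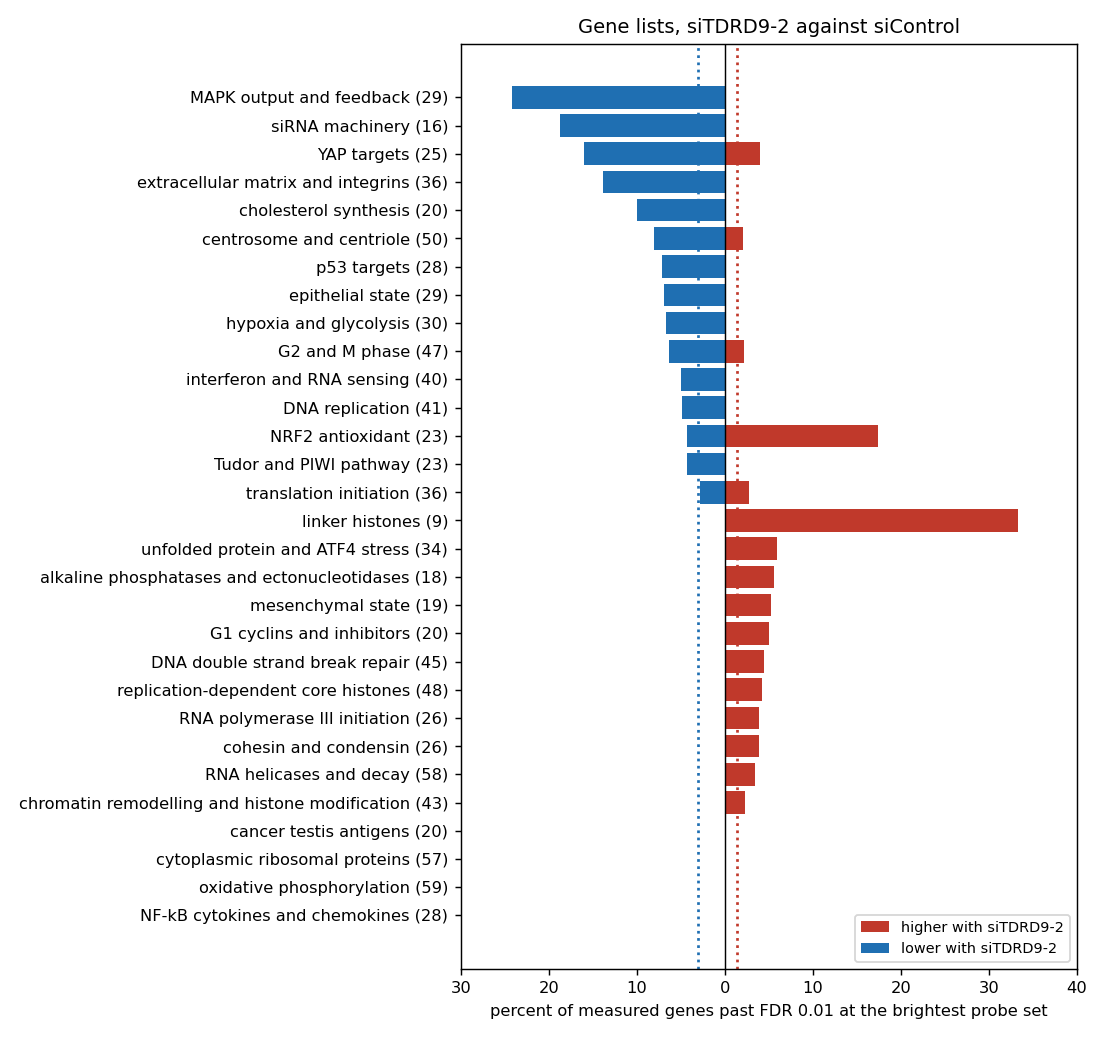
Percent of the measured genes of each of 30 lists (x axis, number of genes in parentheses) that were higher or lower with siTDRD9-2 at an adjusted p under 0.01, read at the brightest probe set. Dotted lines mark the shares over 18132 genes, 1.32% higher and 3.03% lower. The list of MAPK output has 7 of 29 lower, and the linker histones have 3 of 9 higher.

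The linker histones had 3 higher and none lower of 9. Beside *H1-4* and *H1-3* the third was *H1-2*, with 10.37, 10.20 and 10.18 against 11.32, 11.45 and 10.60 (change 0.88, adjusted p = 0.0093), which lost the call in each fit without 1 array but that without siTDRD9-2 replicate 3, with an adjusted p of up to 0.043 and a change of 0.85 without siControl replicate 2. Core histone genes, whose transcripts are likewise made in S phase, had 2 higher of 48, *H2AC20* (1.496) and *H2AC17* (0.87). *H2AC17* lost the call without any 1 of 4 arrays, at an adjusted p of up to 0.0203 and a change of 0.77 without siControl replicate 2. Paralogous histone genes are alike in sequence, and probe sets of 1 can take up signal of another.

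Lists on chromosome structure and the centrosome repeated the split between probe sets. Cohesin and condensin had 1 gene higher of 26 at the brightest probe set, *SMC3* of the cohesin ring, which rose from 9.77, 9.70 and 9.36 to 11.05, 11.04 and 10.88 (change 1.38), yet 5 genes with a probe set called higher, of which *SMC1A* changed by 1.58 at the called and had -0.07 at the brightest (adjusted p = 0.689). Centrosome genes had 1 higher and 4 lower of 50, and 6 with a probe set called higher, of which *SCLT1* also had 1 called lower. The 4 lower became 1 without any 1 siControl array or siTDRD9-2 replicate 1 or 2, 2 without siTDRD9-2 replicate 3 or siTDRD9-1 replicate 1, and 9 with array weights. Chromatin remodelling and histone modification had 1 higher of 43, and 5 with a probe set called higher, with *SETD2*, a histone H3 methyltransferase, at 1.78 and at -0.22 at the brightest (adjusted p = 0.22). In each of these lists the genes with a called rise outnumbered those that were higher at the brightest. A gene with several probe sets can be called at any of them. Over all 18132 genes, 1.13% had a probe set called higher and 1.32% were higher at the brightest. The call also took a 2-fold change, and the reading at the brightest did not.

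Genes of the G2 and M phases were negative in 41 of 47, against 63.1% of all genes, at a median of -0.18 against -0.06. At an adjusted p under 0.01, 1 was higher and 3 were lower, or 10 lower with array weights, and at an unadjusted p under 0.05 there were 1 and 19. *ANLN*, which scaffolds the cytokinetic ring, fell from 10.94, 11.03 and 11.19 to 10.42, 10.22 and 10.49 (change -0.68, adjusted p = 0.00155). *MKI67*, the gene of the Ki-67 antigen, and *CENPF*, a kinetochore protein gene, had a probe set called higher (1.67 and 1.57) and 0.07 and -0.35 at the brightest (adjusted p = 0.787 and 0.0932). *CCND2*, the cyclin D2 gene, was the only G1 gene of 20 to pass and rose from 3.22, 3.90 and 3.48 to 5.30, 5.24 and 5.05. These signals lie below the median siControl signal of all probe sets, 5.76. Without dim probe sets the G1 list had none higher and 2 lower. Whether a rise was read for *MKI67* and *CENPF* therefore depends on the probe set.

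Defence and stress lists were read against the same shares of all genes, 1.32% higher and 3.03% lower. Interferon and RNA sensing genes had none higher and 2 lower of 40, with 2 higher and 9 lower at an unadjusted p under 0.05, beside shares of 7.5% and 16% over all genes. The 2 lower became 1 without any 1 siControl array or siTDRD9-2 replicate 2 or 3. *OAS1*, an oligoadenylate synthetase that senses double-stranded RNA, fell from 6.85, 6.87 and 7.19 to 5.71, 5.72 and 6.21 (change -1.09, adjusted p = 0.000694) and by 0.67 at the brightest, with 7.11, 7.13 and 6.97 in siTDRD9-1. Of the siRNA machinery, 3 of 16 were lower, among them *TNRC6A*, the GW182 partner of Argonaute, from 9.88, 9.94 and 9.91 to 9.26, 9.10 and 9.24 (change -0.71), and 1 was lower without siControl replicate 2 or 3 or siTDRD9-2 replicate 2 or 3. NF-kB cytokines and chemokines had none of 28 past the test, with 1 higher and 4 lower at an unadjusted p under 0.05. Targets of p53 had 2 lower of 28, *FAS* (-0.73) and *CCNG1* (-0.59), which lost the call in 7 and 5 fits without 1 array, at an adjusted p of up to 0.0475 and 0.0285, both without siControl replicate 2 (changes -0.64 and -0.54).

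The NRF2 list of antioxidant genes had 4 higher and 1 lower of 23. The 4 became none without siControl replicate 2 or 3 or siTDRD9-2 replicate 2, 1 without siControl replicate 1 or siTDRD9-2 replicate 1, and 2 without siTDRD9-2 replicate 3 or siTDRD9-1 replicate 1. *HMOX1*, heme oxygenase 1, had 7.36, 7.43 and 7.13 against 7.91, 7.98 and 7.97 (change 0.64) and -0.24 with siTDRD9-1, a difference of 0.88, and *FTL*, the ferritin light chain gene, rose by 0.61. *SLC7A11* and *SLC3A2*, which form the cystine transporter, changed by 0.60 and 0.47 and were the only genes of the stress list of the unfolded protein response and ATF4 to pass, of 34, with 12 higher and 1 lower at an unadjusted p under 0.05. These 4 each lost the call in some fits without 1 array, with an adjusted p of up to 0.0341 for *HMOX1* (change 0.56) and 0.027 for *FTL* (change 0.51), both without siControl replicate 3, and up to 0.0189 for *SLC7A11* (change 0.62) and 0.0421 for *SLC3A2* (change 0.40), both without siTDRD9-2 replicate 2. Oxidative phosphorylation (59 genes), cytoplasmic ribosomal proteins (57) and cancer testis antigens (20) had none past the test. At an unadjusted p under 0.05 they had 8 higher and 1 lower, 2 and 2, and 1 and none.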

How the data were processed

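Total RNA of NCI-H1993 cultures was measured with PrimeView arrays. The authors deposited log2 values. The submitters' processing notes name RMA, Affymetrix Expression Console and limma without versions. RMA subtracts background, quantile-normalizes the arrays and combines the probes of a probe set, so a change of total RNA is not seen. The values were used as deposited, for the 3 groups of 3 arrays given by the sample titles. The field on labelling names a whole-transcript kit.

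Of 49395 probe sets, 102 controls were set apart. The remaining 49293 were fitted with limma 3.58.1 in R 4.3.3 as 1 model of 3 groups with empirical Bayes moderation, and p were adjusted by the Benjamini-Hochberg method over all of them. The array's annotation gave 1 gene for 44988 probe sets, several for 1832 and none for 2473. The brightest probe set of a gene has the highest mean over the 9 arrays. The fit was checked on simulated data. Single measures per array were compared with two-sided exact permutation tests. The number of arrays limits the precision.

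Named are *TDRD9*, *ALPP*, the 15 largest rises and 10 largest falls, the 10 largest of each that differed from siTDRD9-1, genes with all probe sets called and up to 4 members of a list. Others are marked. The members and the 30 lists were chosen with earlier results of these data known. Alternatives were other thresholds, a replicate block, cyclic loess or median centring of the arrays, array weights, a trended variance prior, 2 groups alone, no dim probe sets, and leaving out each array. Protein lengths were not used here. Promoters come from RefSeq.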

Additional observations from a re-analysis of the deposited data

Results flagged for a closer look

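The genes named by rule were examined here, without those chosen for mention after their values were seen. Their changes with the siRNAs were flagged where a limma test of siTDRD9-2 against siTDRD9-1 passed an adjusted p of 0.01. Higher with siTDRD9-2 than with siTDRD9-1 were *CCDC80* (log2 difference 1.75), *TDRD9* (1.48), *ALPP* (1.42), *ZFR* (1.28), *GCC2* (1.25), *AKAP12* (1.19), *STAU2* (1.17), *PPFIBP2* (1.15), *GJA5* (1.04), *PGM2L1* (1.01), *OPN3* (0.91), *HMOX1* (0.88) and *PCDH7* (0.48). Lower were *SPRR1B* (-1.57), *CLN6* (-1.40), *DDAH1* (-1.29), *SUB1* (-1.28), *ZNF680* (-1.22), *OAS1* (-1.19), *TFPI* (-1.14), *FOXQ1* (-0.99), *SELENOT* (-0.94), *SPATS2L* (-0.92), *COL4A5* (-0.90), *MFSD8* (-0.88), *BNIP3* (-0.71) and *EIF1AX* (-0.59). Of these genes, *TDRD9* fell less with siTDRD9-2. *AKAP12*, *HMOX1*, *OAS1*, *COL4A5*, *BNIP3* and *EIF1AX* were named for their changes against siControl, and *ALPP* was set beforehand. The others were chosen in part for their difference. For *BNIP3*, a mitophagy receptor of the hypoxia list, siControl gave 9.04, 8.90 and 8.91, siTDRD9-2 8.39, 8.39 and 8.10 and siTDRD9-1 9.001, 9.11 and 8.90. *EIF1AX*, an initiation factor, had 9.88, 10.00 and 9.89, then 9.37, 9.36 and 9.09, and 9.85, 9.95 and 9.78.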

How the results depend on the processing

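With an adjusted p under 0.05 and 1.5-fold, 1421 probe sets were higher, 972 lower, and 221 and 423 of them differed from siTDRD9-1. With an adjusted p under 0.01 and no fold minimum these counts were 1456, 1100, 114 and 268. Array weights gave 68 rises and 87 falls that differed. Without 1 array the rises were 235 to 341, the falls 92 to 145, and those that differed 21 to 32 and 29 to 65. The fall of *TDRD9* was -0.77 to -0.63 without 1 array, and it missed 0.01 with cyclic loess (-0.67, adjusted p = 0.0118). Same-numbered arrays of different groups had correlations of their deviations from -0.15 to 0.15, and unlike-numbered ones from -0.26 to 0.17. Such weak values, from 3 arrays per group, cannot decide whether the numbers pair the cultures. With the replicate block, 309 were higher and 106 lower, 36 and 52 differed, and *TDRD9* had -0.70 (adjusted p = 0.0153). Of 1500 values of 95 named genes other than *TDRD9* under the alternatives, 1330 kept their side of the threshold, 170 (29 genes) did not, and 0 changed sign. Falls were 64.3% to 73.5% of the genes past 0.01 at the brightest probe set over the alternatives, against 69.7%. Dim probe sets carry little signal over background, which limits changes such as those of *AXL*, *CCN2*, *CCDC80* and *CCND2*.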
